A study of Mus musculus with 12 samples.

Results

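The genes described are the 3 subunits of the epithelial sodium channel and 4 genes of the aldosterone response that acts on it, chosen by symbol: Scnn1a, Scnn1b, Scnn1g, Nr3c2, Hsd11b2, Sgk1 and Nedd4l. All 7 are in the expression table, which holds 17734 genes. The channel, called ENaC, lies in the luminal membrane of epithelial cells and lets sodium enter from the gut content, and the sodium is then pumped out on the other side. In the distal colon and rectum this path takes up salt and water under the control of aldosterone. Aldosterone binds the mineralocorticoid receptor (Nr3c2), the enzyme encoded by Hsd11b2 inactivates glucocorticoids that would otherwise occupy this receptor, and the receptor drives transcription of Sgk1. The kinase Sgk1 phosphorylates the ubiquitin ligase encoded by Nedd4l, which otherwise removes the channel from the membrane.

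Rectal RNA was sequenced from 12 male C57BL/6 mice aged 8 to 10 weeks, 3 in each of 4 groups. Normal mice drank water, and colitis mice drank 2.5% dextran sulfate sodium (DSS), a polymer that injures the bowel lining, for 7 days. The 2 groups named normal mice receiving BBR and, with DSS, colitis mice receiving BBR were given berberine, a plant alkaloid, by gavage at 100 mg/kg, for 6 days by the treatment protocol in the labels and for 7 days by the study's methods, where the sample titles and treatment tags also read 7d. No mouse carried a gene change, and the labels call the tissue colorectum where the methods name rectum. Values are FPKM, a level per transcript length and sequencing depth, and differences are log2 differences of (FPKM + 0.1), which understate changes of low genes. P is limma's unadjusted p, and the adjusted p covers 15315 genes whose mean reached 0.1 FPKM, all 7 included.

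The 4 mice numbered 4, 1 in each group, stood apart from the other 8. Their values summed to 482194 to 504337 FPKM, against 696286 to 765876, and 872 to 1086 genes were at 0, against 1332 to 1926. Steps between low values put 3 reads on a transcript of 2000 bases at 0.0758 to 0.0862 FPKM in these 4 and at 0.107 to 0.118 FPKM elsewhere (counting error alone), and the 7 genes lay far above that in every mouse. The median difference of all genes between colitis and normal mice was −0.32, and −0.05 after quantile normalization. With that scaling the share of higher genes among those at P of at most 0.05 was 49.5%, against 26% as deposited. Markers of other cell types differed between these groups too, where 15.9% of all genes were lower and 5.56% higher at P of at most 0.05. All 8 smooth muscle markers were lower in colitis mice at P of at most 0.05 (median −3.04), with a summed level of 73.4 to 674 FPKM against 1668 to 3140 FPKM. All 5 granulocyte markers were higher at that limit (median 3.86), and their summed level was 45.6 to 487 FPKM against 0.51 to 2.42 FPKM. Of the 5 endothelial markers 3 were lower at that limit (median −1.16), and their summed level was 4.16 to 10.3 FPKM against 16.4 to 20.2 FPKM. None of the 8 pan-epithelial markers passed the limit (median −0.08), and their summed level was 8726 to 12100 FPKM against 9167 to 12660 FPKM. Squamous markers summed to 0.65 to 8.21 FPKM over the 12 mice. In whole tissue, fewer cells of a type and less RNA per cell cannot be told apart.

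In normal mice the order of mean levels was Hsd11b2, Sgk1, Scnn1a, Nr3c2, Scnn1b, Nedd4l and Scnn1g. Hsd11b2 averaged 179.8 ± 27.6 FPKM (SD, n = 3), Sgk1 157 ± 72.6 FPKM and Scnn1a 117 ± 13.3 FPKM, and these neighbours in the order overlapped. Nr3c2 followed at 45.2 ± 7.54 FPKM, below every Scnn1a value and above every Scnn1b value. The 3 lowest were Scnn1b at 15.3 ± 6.41 FPKM, Nedd4l at 13.3 ± 0.925 FPKM and Scnn1g at 8.01 ± 3.29 FPKM. The channel's mRNA was thus unequal between subunits, since Scnn1b stood at 12.9 ± 4.77% of Scnn1a in FPKM and Scnn1g at 6.75 ± 2.04%. Scnn1a kept the third place and Nr3c2 the fourth place in each of the 4 groups. Sgk1 came before Hsd11b2 in both colitis groups, but their values overlapped there as well.

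**Figure D1:**
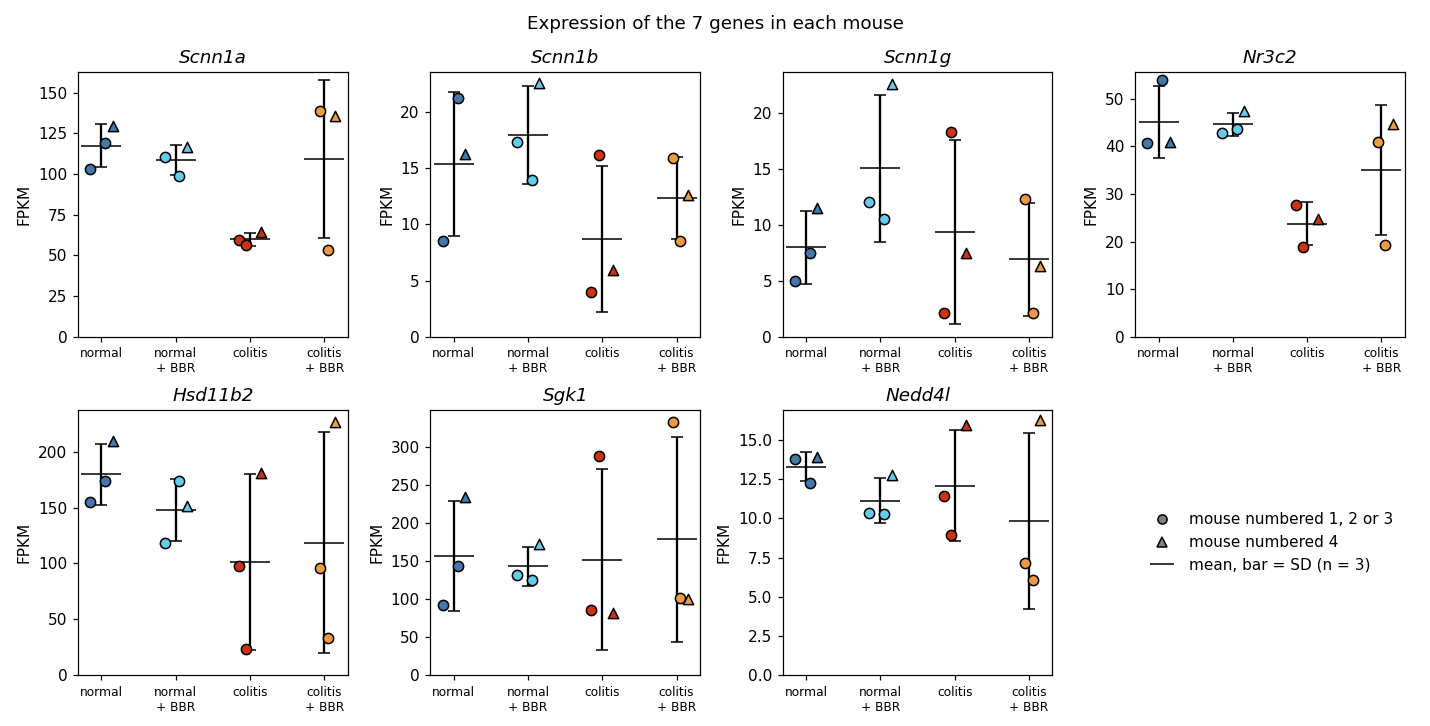
FPKM of the 7 genes in each mouse of the 4 groups, with circles for mice numbered 1, 2 or 3, triangles for mice numbered 4, and the mean with its SD (n = 3) as a line and bar. Scnn1a and Nr3c2 of the 3 colitis mice lie below those of every normal mouse, and in colitis mice receiving BBR 1 mouse lies at the colitis level.

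Scnn1a encodes the alpha subunit, which the other subunits need to form a channel of full activity. Its level was 103, 119 and 129.6 FPKM in normal mice 1, 3 and 4, and 59.2, 56.1 and 64.1 FPKM in colitis mice 1, 2 and 4. The groups did not overlap, and the colitis values lay close together. Scnn1a had a log2 difference of −0.97 ± 0.31 (SE; 95% interval −1.65 to −0.29), with P of at most 0.05 and an adjusted p of 0.126 by limma. The exact permutation test of 3 mice against 3 gave p = 0.1, the smallest it can give.

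Nr3c2, the receptor for aldosterone, was at 40.8, 53.9 and 40.9 FPKM in normal mice and at 27.8, 18.9 and 24.7 FPKM in colitis mice. Again no colitis mouse reached the lowest normal mouse. The log2 difference was −0.93 ± 0.29 (95% interval −1.56 to −0.30), with P of at most 0.05 and an adjusted p of 0.116 by limma. The differences of Scnn1a and Nr3c2 had the same sign in the mice numbered 4 (−1.01 and −0.73) and in the others (−0.94 and −1.03).

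The beta and gamma subunits spread more between mice. Scnn1b was at 8.50, 21.2 and 16.3 FPKM in normal mice and at 4.02, 16.1 and 5.96 FPKM in colitis mice, so that 2 colitis mice lay below all normal mice and colitis mouse 2 lay within their range. Its log2 difference was −0.96, with a 95% interval of −2.01 to 0.08 and an adjusted p of 0.258 by limma. It was −0.54 to −1.53 without 1 mouse, and at P of at most 0.05 without normal mouse 1 (−1.34) or colitis mouse 2 (−1.53). Scnn1g was at 4.98, 7.54 and 11.5 FPKM in normal mice and at 2.17, 18.4 and 7.52 FPKM in colitis mice. The colitis values of Scnn1g spanned the normal ones on both sides, and the interval of the difference, −1.78 to 1.44, leaves a wide range of sizes.

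Hsd11b2, the enzyme that shields the receptor from glucocorticoids, was at 155, 174 and 209.8 FPKM in normal mice and at 97.7, 23.7 and 181 FPKM in colitis mice. Colitis mouse 2 had the lowest value of the 12 mice, and colitis mouse 4 lay within the normal range. Its log2 difference was −1.25 with an interval of −2.82 to 0.32 and an adjusted p of 0.312 by limma. Without 1 mouse the difference was −0.42 to −1.89. Between the mice numbered 4 it was −0.21, and over the others it was −1.77, with P of at most 0.05 in a fit of the 8 mice not numbered 4 and a limma adjusted p of 0.139 (0.118 to 0.789 over 18 alternatives).

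Sgk1, the aldosterone-induced kinase, was at 91.6, 143 and 235 FPKM in normal mice and at 85.5, 289 and 81.6 FPKM in colitis mice. Colitis mouse 2 lay above and the other 2 below all normal mice. The log2 difference was −0.20, with an interval of −1.44 to 1.03. Nedd4l, the ligase that lowers the channel at the membrane, was at 13.8, 12.2 and 13.9 FPKM in normal mice and at 11.4, 8.93 and 15.9 FPKM in colitis mice. Its log2 difference was −0.17, with an interval of −0.91 to 0.56.

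All 7 genes thus had a negative difference between colitis and normal mice, with a median of −0.93 against −0.32 over all genes. After quantile normalization 2 of the 7 were positive, Scnn1g and Nedd4l, and after centring on the median Sgk1 was positive as well. At P of at most 0.05, 2 of the 7 were lower, Scnn1a and Nr3c2, where 15.9% of all genes were. These 2 also had no overlap between the groups, as 22.2% of all genes did in that direction. None of the 7 passed an adjusted p under 0.05, which 1.08% of all genes did. With quantile normalization 2 of the 7 were lower at P of at most 0.05, where 9.93% of all genes were. After centring each mouse on its median gene, none of the 7 was at that limit, where 8.13% of all genes were lower. Centred on the pan-epithelial markers, Scnn1a and Nr3c2 were still at that limit, where 8.63% of all genes were lower, and the 7 had a median of −0.86 against −0.25 over all genes. With the replicate number as a block, Scnn1b (−1.34), Scnn1g (−0.97) and Sgk1 (−0.82) joined Scnn1a and Nr3c2 at P of at most 0.05. No adjusted p was under 0.05 with the block, and the lowest by limma was 0.0505, for Scnn1a.

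**Figure D2:**
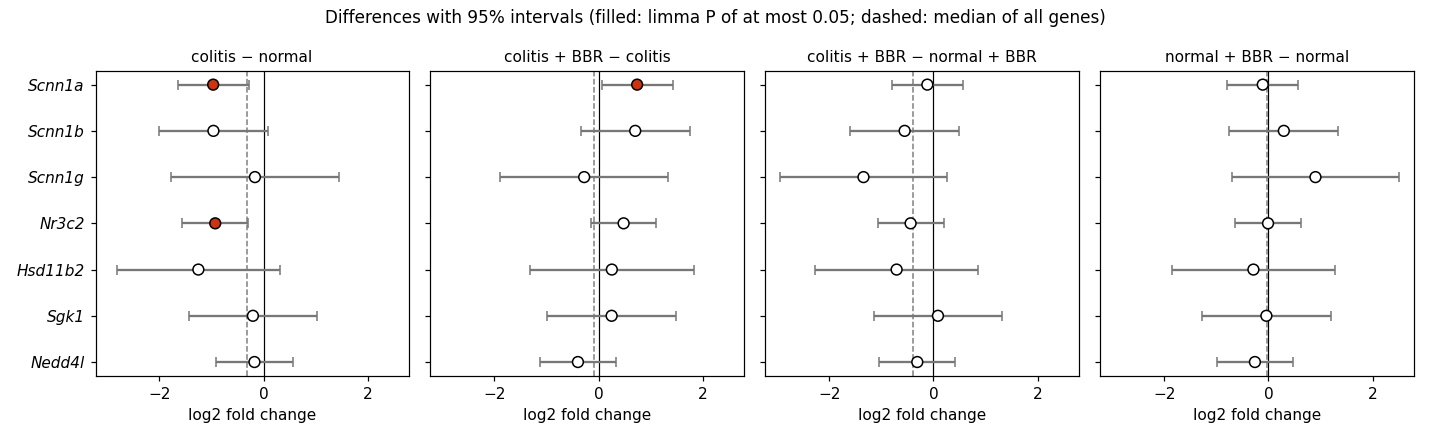
Log2 differences of the 7 genes (x axis) in 4 comparisons, with 95% intervals from limma. Filled points have P of at most 0.05, and the dashed line is the median of all genes, −0.32 in the first panel. Filled points are Scnn1a and Nr3c2 in colitis against normal mice and Scnn1a in colitis mice receiving BBR against colitis mice.

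With BBR, the group of colitis mice divided. Scnn1a was at 138.5, 53.1 and 136 FPKM in colitis mice receiving BBR numbered 2, 3 and 4. Mice 2 and 4 lay above all 3 normal mice, and mouse 3 lay below all 3 colitis mice. Scnn1a was higher than in colitis mice by a log2 difference of 0.74 ± 0.31 (95% interval 0.06 to 1.42; limma adjusted p = 0.717), where 1.19% of all genes were higher at that P limit and 0% of all genes passed an adjusted p under 0.05. The exact permutation test gave p = 0.4, and in a fit of these 2 groups alone Scnn1a was no longer at P of at most 0.05. Leaving out 1 mouse, it was at that limit in 1 of 6 fits. Without mouse 3 the difference was 1.2, with an adjusted p of 0.0283 by limma, the lowest over 18 alternatives, which ran up to 1.0.

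Nr3c2 was also lowest in mouse 3, at 41.0, 19.4 and 44.6 FPKM in colitis mice receiving BBR numbered 2, 3 and 4. Mouse 3 lay within the range of the colitis mice, and mice 2 and 4 above all of them. The difference from colitis mice was 0.48, with an interval of −0.15 to 1.11. It was 0.26 to 0.86 without 1 mouse, and at P of at most 0.05 without mouse 3 (0.86, limma adjusted p = 0.120). Hsd11b2 was at 95.6, 32.9 and 227 FPKM, with the lowest value again in mouse 3 and the highest in mouse 4, and an interval of −1.31 to 1.82. Nedd4l was at 7.17, 6.04 and 16.3 FPKM, and its difference of −0.40 had an interval of −1.13 to 0.34.

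Scnn1b was at 15.9, 8.56 and 12.6 FPKM in colitis mice receiving BBR, within the range of the normal mice and of the colitis mice. Its difference from colitis mice was 0.70, with an interval of −0.34 to 1.75. It was 0.28 to 1.27 without 1 mouse, and at P of at most 0.05 without colitis mouse 2 (1.27, limma adjusted p = 0.758). Scnn1g was at 12.3, 2.17 and 6.30 FPKM, lowest in mouse 3, and differed from colitis mice by −0.28 (interval −1.89 to 1.33). Sgk1 was at 334, 102 and 99.9 FPKM, and mouse 2 had the highest Sgk1 value of the 12 mice. Apart from Scnn1a, none of the 7 had P of at most 0.05 in this comparison. Over the 8 mice not numbered 4, Scnn1a was not at that limit (0.57) and Nedd4l was (−0.61, limma adjusted p = 0.621).

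Mouse 3 of that group had a granulocyte marker sum of 199 FPKM and mouse 2 one of 209 FPKM, and mouse 4 had 2.66 FPKM. Smooth muscle markers summed to 482.5 and 503 FPKM in mice 3 and 2, and to 3516 FPKM in mouse 4. Surface colonocyte markers summed to 25880, 12500 and 8399 FPKM in mice 2, 3 and 4, and squamous markers to 0.65, 5.12 and 1.91 FPKM. Mice 2 and 3, which differed in Scnn1a and Nr3c2, were close in the first 2 of these sums and apart in the others. The pan-epithelial sum was 6456, 9488 and 9881 FPKM in mice 2, 3 and 4. The part of these cell types in the differences was not tested.

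In normal mice receiving BBR numbered 1, 3 and 4, Scnn1a was at 110.3, 99.0 and 117 FPKM and Nr3c2 at 42.8, 43.6 and 47.3 FPKM, both overlapping normal mice. Their differences from normal mice were −0.11 (interval −0.79 to 0.57) and −0.01 (interval −0.64 to 0.62). Scnn1g was at 12.1, 10.6 and 22.6 FPKM, higher in each mouse than in the normal mouse of the same number, with 1 value below the highest normal one. The difference of Scnn1g was 0.90, with an interval of −0.71 to 2.51. Mice of these 2 groups with the same number deviated together (r of 0.109 to 0.657 across genes), though 2 of the 6 pairs with different numbers did too (−0.532 to 0.456). With the replicate number as a block Scnn1g was at P of at most 0.05, with a limma adjusted p of 1.0 there and 0.9999 or more in each alternative. None of the 7 passed P of at most 0.05 without the block, where 1.36% of all genes did in either direction. Scnn1b, at 17.3, 14.0 and 22.5 FPKM, and Sgk1, at 132, 126 and 172 FPKM, overlapped normal mice too. Hsd11b2 was at 119, 174 and 151 FPKM, and Nedd4l at 10.3, 10.3 and 12.8 FPKM.

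Between colitis mice receiving BBR and normal mice receiving BBR, 6 of the 7 had a negative difference without the block. None had P of at most 0.05 there, where 17.3% of all genes were lower at that limit. None passed an adjusted p under 0.05, which 0.0392% of all genes did. Scnn1a differed by −0.12 (interval −0.80 to 0.56) and Nr3c2 by −0.44 (interval −1.07 to 0.19). Scnn1g had the difference of largest size, −1.34, with an interval of −2.95 to 0.26. It was −0.69 to −1.91 without 1 mouse, and at P of at most 0.05 without mouse 2 of the colitis mice receiving BBR (−1.91). With the replicate number as a block all 7 were negative. Scnn1g (−2.23, limma adjusted p = 0.042) and Scnn1b (−1.10, limma adjusted p = 0.126) were then at P of at most 0.05. This comparison and that of colitis mice receiving BBR with colitis mice share the same 3 mice.

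Averaged over mice with and without BBR, the 6 DSS mice were lower than the 6 others in 3 of the 7 genes at P of at most 0.05, where 33.3% of all genes were. Nr3c2 differed by −0.68 ± 0.20 (limma adjusted p = 0.0469) and was the 1 gene of the 7 past the adjusted limit, which 14.3% of all genes passed in either direction. The exact permutation test with DSS labels exchanged within mice with and without BBR gave p = 0.015 for Nr3c2, where 0.005 is the smallest it can give. Its adjusted p was above 0.05 after each scaling between mice, 0.120 with quantile normalization, 0.400 centred on the median and 0.1 centred on the pan-epithelial markers, and in 10 of 12 fits without 1 mouse (0.0134 to 0.0942). Scnn1a differed by −0.54 ± 0.22 (limma P = 0.0304, adjusted p = 0.0980, exact permutation p = 0.06). Scnn1b differed by −0.76 ± 0.34 (limma P = 0.0451, adjusted p = 0.121, exact permutation p = 0.07). Leaving out 1 mouse, Scnn1a was at P of at most 0.05 in 6 of 12 fits and Scnn1b in 4 of 12. With the replicate number as a block, 5 of the 7 were lower at P of at most 0.05, where 30.2% of all genes were, and 3 passed the adjusted limit, where 16.1% of all genes did. Nr3c2 was then not among these 3 (−0.72, limma adjusted p = 0.0726), which were Scnn1b (−1.22, adjusted p = 0.0192), Scnn1g (−1.60, adjusted p = 0.00691) and Sgk1 (−0.71, adjusted p = 0.0467). The calls in this comparison thus depended on the block. The number 2 was given to DSS mice only, so that with the block these 2 mice bear on the averaged difference only through the difference between the 2 colitis groups. After quantile normalization 1 of the 7 was lower at P of at most 0.05, where 13.9% of all genes were, and after centring on the pan-epithelial markers 1 was, where 24.1% of all genes were. After centring on the median none was, where 10.8% of all genes were. The interaction, which asks whether DSS acted differently with BBR, had no gene of the 7 at P of at most 0.05, where 2.42% of all genes were. It was 0.85 for Scnn1a, with an interval of −0.11 to 1.81 (limma adjusted p = 0.9998). With the block, Scnn1a (0.96) and Scnn1g (−1.26) were at that limit, where 5.09% of all genes were, with limma adjusted p-values of 0.947 and 0.842.

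The ratio of subunits within a mouse does not depend on a scaling factor per mouse, the pseudocount aside. On the log2 scale, Scnn1b over Scnn1a averaged −3.02 in normal mice and −3.02 in colitis mice, where the 3 colitis mice spread from −3.85 to −1.79. Scnn1g over Scnn1a averaged −3.93 in normal mice, −2.92 in normal mice receiving BBR, −3.13 in colitis mice and −4.15 in colitis mice receiving BBR. The ratio of Scnn1g to Scnn1a was higher in all 3 normal mice receiving BBR than in the 3 normal mice, by 1.01. It was lower in all 3 colitis mice receiving BBR than in the 3 normal mice receiving BBR, with a difference of −1.23. Each of these 2 comparisons gave an exact permutation p = 0.1, the smallest that 3 mice against 3 allow. Averaged over BBR, DSS mice differed from the others by −0.22 in the ratio of Scnn1b to Scnn1a (exact permutation p = 0.575) and by −0.21 in that of Scnn1g (exact permutation p = 0.74).

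**Figure D3:**
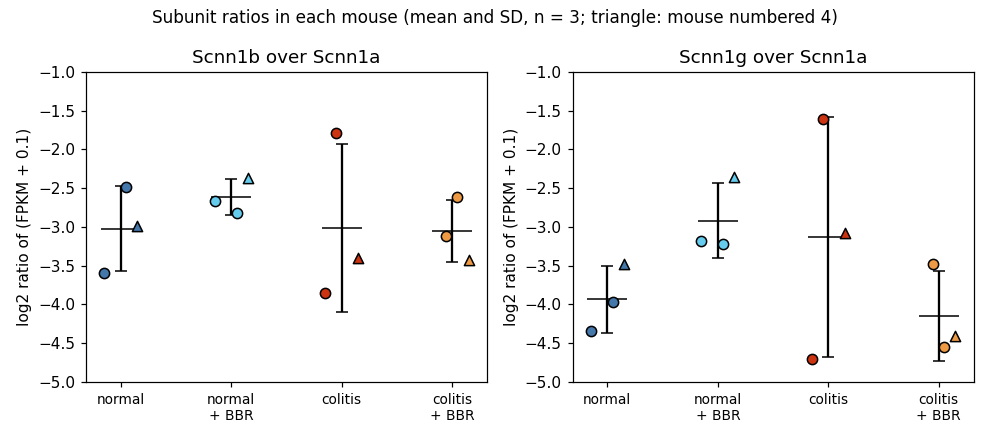
Log2 ratio of Scnn1b (left) and Scnn1g (right) to Scnn1a in each mouse, from FPKM + 0.1, with the group mean and SD (n = 3) and triangles for mice numbered 4. Normal mice receiving BBR lie above normal mice in the right panel, with means of −2.92 and −3.93, and colitis mice spread most.

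With group means removed, over the 12 mice, Scnn1b and Scnn1g had r = 0.87 (Spearman's rho 0.87). Sgk1 followed both, with r = 0.80 (rho 0.80) to Scnn1b and r = 0.81 (rho 0.70) to Scnn1g. Scnn1a had r = 0.36 (rho 0.53) to Scnn1b, 0.58 (rho 0.66) to Scnn1g and 0.34 (rho 0.32) to Sgk1, and the last was 0.66 over the 8 mice not numbered 4. To Nr3c2 it had r = 0.88 (rho 0.72), so that by rho Scnn1g was nearly as close to it as Nr3c2 was. Hsd11b2 had r = 0.85 (rho 0.70) to Nedd4l and 0.77 (rho 0.67) to Nr3c2, and −0.39 to Sgk1. Without the 2 mice farthest from the median on the first gene, r was 0.74 for Scnn1b and Scnn1g, 0.65 for Scnn1a and Nr3c2 and 0.81 for Hsd11b2 and Nedd4l. Over the 8 mice not numbered 4 these were 0.89, 0.90 and 0.88. These correlations are descriptions, since the mice of a group share their treatment and each mouse's genes share a library.

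**Figure D4:**
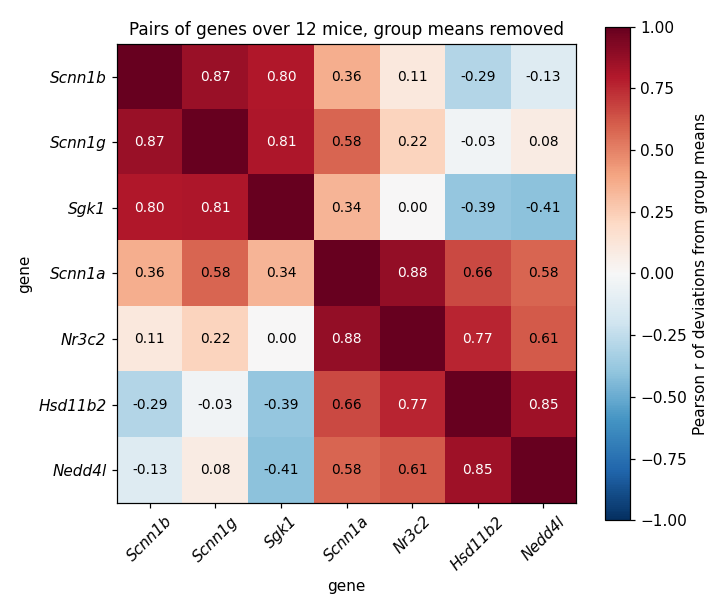
Pearson r between the 7 genes (rows and columns) over 12 mice after the group means were removed, on a colour scale from −1 to 1. Scnn1b, Scnn1g and Sgk1 form 1 block with r of 0.80 to 0.87, and Scnn1a with Nr3c2 reaches 0.88.

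Among the colitis mice, mouse 2 had the highest Scnn1b, Scnn1g and Sgk1 and the lowest Scnn1a, Nr3c2, Hsd11b2 and Nedd4l. That mouse also had the highest fibroblast marker sum of the 12, 659.7 FPKM against 158 to 532 FPKM, and the highest leukocyte sum, 565.5 FPKM against 82.8 to 250.4 FPKM. The part of these cells in its levels was not tested. The 3 genes of 11943 with a mean of at least 1 FPKM whose pattern over the 12 mice was most like Scnn1g were Spg20, Lum and Mmrn1 (r of 0.86 to 0.87), and Lum, a matrix proteoglycan, is 1 of the fibroblast markers. Those most like Scnn1b were Pamr1, Syt6 and Ackr4 (0.89 to 0.92), and those most like Sgk1 were Lyve1, Plod1 and Hpgds (0.83 to 0.86). Scnn1a was matched most closely by Cyp2d22, Reep6 and Ank3 (0.94 to 0.95). Nr3c2 was matched by Wnt8b, Insr and Vdr (0.97 to 0.98), of which Insr encodes the insulin receptor and Vdr the vitamin D receptor. Hsd11b2 was matched by B4galnt3 and Gtpbp1 (each 0.98). Nedd4l was matched by Lrp5, Dapk3 and Irgq (0.94 to 0.96). These values include the differences between groups.

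The starts of Sgk1, Scnn1b and Scnn1g are shown because their levels were correlated between mice and Sgk1 is a textbook transcriptional target of corticosteroid receptors. RefSeq promoters of the build GRCm38.p6, the 250 bases before a transcript start, were matched by symbol for 4 of the 7 genes, Scnn1b, Scnn1g, Nr3c2 and Sgk1. Corticosteroid receptors bind DNA as pairs at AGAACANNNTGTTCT and like sequences. The hexamer AGAACA of this site, or TGTTCT on the other strand, was searched on both strands and is in 16.1% of 32851 promoters, and the full site is in 3 of them (0.00913%). Of these 3, 1 is a start of Sgk1, and the others belong to Acnat2 and Gm35041. Sgk1 has 6 starts in the table, 3 of them with a hexamer, and the start at chr10:21993640-21993889 (plus strand) holds the full site. Neither Scnn1b (chr7:121864788-121865037) nor Scnn1g (chr7:121734229-121734478), neighbours on the plus strand with no annotated gene between them, holds a hexamer in its window, and neither does Nr3c2. Capitals mark hexamers, which also form the full site where they lie 3 bases apart.
Sgk1: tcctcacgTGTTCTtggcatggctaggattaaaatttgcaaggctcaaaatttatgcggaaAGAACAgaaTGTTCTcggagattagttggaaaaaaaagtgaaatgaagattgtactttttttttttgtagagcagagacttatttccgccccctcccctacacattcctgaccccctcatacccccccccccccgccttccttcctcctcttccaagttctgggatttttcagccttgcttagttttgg
Scnn1b: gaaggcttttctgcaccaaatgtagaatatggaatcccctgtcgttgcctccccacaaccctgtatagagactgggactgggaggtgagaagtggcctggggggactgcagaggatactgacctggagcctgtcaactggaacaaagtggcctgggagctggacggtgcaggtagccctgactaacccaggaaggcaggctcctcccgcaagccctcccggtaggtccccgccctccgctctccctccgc
Scnn1g: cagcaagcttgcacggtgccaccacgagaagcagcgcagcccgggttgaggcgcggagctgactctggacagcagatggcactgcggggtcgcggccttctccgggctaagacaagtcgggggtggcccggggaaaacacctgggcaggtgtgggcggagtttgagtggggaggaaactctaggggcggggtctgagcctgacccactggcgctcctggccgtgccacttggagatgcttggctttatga
A match of letters is a description, and binding was not measured here.

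Of 37 further genes of the pathway, in 4 lists, 4 had P of at most 0.05 between colitis and normal mice, 1 higher and 3 lower, where 5.56% of all genes were higher and 15.9% lower. None passed the adjusted limit. Sgk2, a kinase of the Sgk family, was the 1 higher at P of at most 0.05. It was at 24.2, 28.6 and 27.3 FPKM in normal mice and at 83.4, 113 and 51.1 FPKM in colitis mice. The groups did not overlap, and the difference was 1.56 ± 0.41 (limma adjusted p = 0.0777), where 7.1% of all genes had no overlap in that direction. In colitis mice receiving BBR it was at 85.2, 87.7 and 30.9 FPKM, against 36.7, 20.7 and 22.6 FPKM in normal mice receiving BBR. Averaged over BBR, Sgk2 was higher by 1.40 ± 0.29 (limma adjusted p = 0.0192), and its adjusted p stayed between 0.0168 and 0.0243 with the 3 other scalings. Sgk1 differed by −0.06 in the same comparison (interval −0.93 to 0.81).

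Nedd4, the relative of Nedd4l, was at 70.7, 73.2 and 82.0 FPKM in normal mice and at 38.3, 40.1 and 59.3 FPKM in colitis mice, a difference of −0.74 at P of at most 0.05 (limma adjusted p = 0.144). With BBR it was at 66.8, 74.2 and 74.8 FPKM in normal mice and at 35.6, 34.7 and 65.98 FPKM in colitis mice. All 6 DSS mice lay below all 6 others, as in 4.96% of all genes, though the mice numbered 4 came close. Averaged over BBR the difference was −0.73 ± 0.18 (limma adjusted p = 0.0311), and its adjusted p was 0.0711 to 0.1 with the other scalings. Ndrg2, described as an aldosterone-induced gene, was at 105 ± 13.7 FPKM in normal mice and at 52.8 ± 23.1 FPKM in colitis mice (limma adjusted p = 0.213). Kcnk5, a potassium channel, was at 68.2 ± 9.08 FPKM and 27.4 ± 11.6 FPKM (difference −1.41, limma adjusted p = 0.116).

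The 9 genes of corticosteroid response were all lower in DSS mice averaged over BBR, with a median of −0.65 against −0.36 over all genes, and 6 of them at P of at most 0.05, where 33.3% of all genes were. After quantile normalization 7 of the 9 were lower and 3 at that limit, where 13.9% of all genes were, and centred on the median 6 were lower and 1 at that limit, Ndrg2, where 10.8% of all genes were. Nr3c1, the glucocorticoid receptor, differed by −0.45 (limma adjusted p = 0.0453), Tsc22d3, a glucocorticoid-induced leucine zipper protein, by −0.65 (adjusted p = 0.0382) and Ndrg2 by −1.27 (adjusted p = 0.0363). Fkbp4, a chaperone of steroid receptors, differed by −1.02, Per1 by −1.07 and Usp2, a deubiquitinase, by −1.24, each at that P limit without an adjusted p under 0.05. Nr3c1 lost P of at most 0.05 with quantile normalization and with centring on the median. In the mice numbered 4 the summed level of the 9 was 288 and 294 FPKM without DSS and 295 and 297.5 FPKM with DSS. Over the other 8 mice it was 324 to 414 FPKM and 109 to 187 FPKM. Fkbp4 was higher with DSS in the mice numbered 4, at 104 and 84.4 FPKM against 71.5 and 58.1 FPKM. Nr3c1, Tsc22d3 and Per1 were lower with DSS there, and Usp2 and Ndrg2 overlapped. Of the 8 proteases and inhibitors, whose proteases cleave and activate the channel, 3 were higher at P of at most 0.05 averaged over BBR, where 5.75% of all genes were, and none was lower. They were Prss8 (0.65), Tmprss4 (0.43) and St14 (0.38), all membrane-bound serine proteases, and none passed the adjusted limit. Of the 11 kinases and ubiquitin genes 1 was higher, Sgk2, where 5.75% of all genes were, and 5 were lower, where 33.3% of all genes were, among them the kinases of salt transport Wnk4 (−1.15, limma adjusted p = 0.0874) and Wnk1 (−0.56, limma adjusted p = 0.0406). Wnk1 did not pass the adjusted limit with any of the 3 other scalings (0.114 to 0.393). Of the 9 genes of the sodium pump and potassium path 3 were lower, the same share as the 33.3% of all genes, and Kcnk5 had a difference of −1.01. Kcnn4, a calcium-activated potassium channel, had the difference of largest size, −1.89 (limma adjusted p = 0.0858). In the mice numbered 4 Kcnn4 was higher with DSS, at 14.2 and 11.7 FPKM against 10.6 and 4.18 FPKM.

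With the replicate number as a block, several of these calls changed. Nr3c1 (limma adjusted p = 0.101) and Ndrg2 (0.0692) no longer passed the adjusted limit and Per1 did (−1.11, limma adjusted p = 0.0332), while Fkbp4 and Usp2 lost P of at most 0.05 and Hsd11b1 gained it. Tmprss4 (0.51, limma adjusted p = 0.0319) and St14 (0.53, 0.028) passed the adjusted limit, and Serpine2 was lower at P of at most 0.05. Of the kinases and ubiquitin genes 3 were lower at P of at most 0.05 in place of 5. Kcnn4 lost P of at most 0.05 (−1.10), and Fxyd4, a regulator of the sodium pump, was at −1.99 (limma adjusted p = 0.0235), with Kcnma1, a calcium-activated potassium channel, at −1.04 (0.0391).

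**Figure D5:**
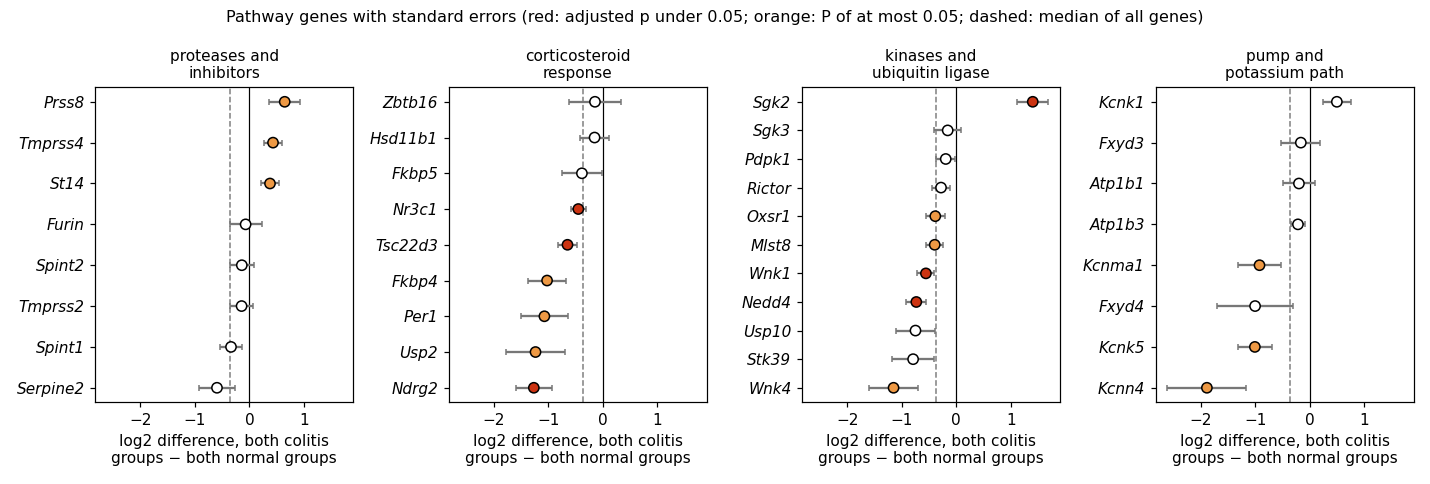
Log2 difference with its standard error between the 6 DSS mice and the 6 others, averaged over BBR, for 36 of the 37 pathway genes in their 4 lists. Red points pass an adjusted p under 0.05, orange points a P of at most 0.05, and the dashed line is the median of all genes, −0.36. Sgk2 is the red point to the right of 0.

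In colitis mice receiving BBR against normal mice receiving BBR, 6 of the 9 genes of corticosteroid response were lower at P of at most 0.05, where 17.3% of all genes were. With quantile normalization it was 1 of the 9, where 5.88% of all genes were, and centred on the median 1, where 4.06% were. Centred on the pan-epithelial markers it was 5, where 13.2% of all genes were. As deposited, Ndrg2 differed by −1.45, Per1, a clock gene that glucocorticoids induce, by −1.37 and Fkbp4 by −1.19, with adjusted p-values of 0.215 to 0.252 by limma. Sgk2 (1.25) and Prss8 (1.08) were higher at that limit, where 2.37% of all genes were, and Serpine2 (−1.23), a serine protease inhibitor, was lower, as were Hsd11b1 (−0.81) and Tsc22d3 (−0.78) of the corticosteroid list. When colitis mice with and without BBR were compared, 1 of the 37 was at that limit. This was Hsd11b1, the enzyme that regenerates active glucocorticoid, at 2.95, 7.21 and 5.52 FPKM in colitis mice and at 3.06, 1.59 and 1.63 FPKM in colitis mice receiving BBR, a difference of −1.25 ± 0.37 (limma adjusted p = 0.5099), where 5.2% of all genes were lower at that limit. None of the 37 was at that limit between normal mice receiving BBR and normal mice, where 0.516% of all genes were higher and 0.842% lower. With the block, Prss8 was at that limit there (−0.64, limma adjusted p = 1.0).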

How the data were processed

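The authors filtered reads with SOAPnuke, aligned them with Bowtie2 2.2.5 and estimated expression with RSEM 1.2.12 (build mm9 in the submitters' notes), and the deposited table has 1 column of FPKM per mouse, scaled by the authors for length and depth, where the unit was inferred and TPM cannot be told apart. The labels and the methods name different library kits and sequencers. No further scaling between mice was applied. Values were tested as log2(FPKM + 0.1) with limma 3.58.1 in R 4.3.3, 1 mean per group over all 12 mice with a trend, on 15315 genes whose mean reached 0.1 FPKM, with Benjamini-Hochberg adjustment over them. The fit was tested on simulated data with known changes. The labels do not say that the replicates came from separate cages. Permutation tests were exact, two-sided and unadjusted. The rest was computed with SciPy 1.17.1, pandas 2.3.3 and NumPy 2.4.6 in Python 3.11.15, and drawn with matplotlib 3.10.9.

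The 7 genes, the lists and the tests were chosen with earlier results of these data known. Pathway genes were named at P of at most 0.05, at most the 8 of largest difference per comparison. Some genes that these rules cover are counted but not reported by name here. Nedd4, Nr3c1, Tsc22d3, Prss8, Tmprss4 and St14 were named in the averaged comparison once their values were known. Alternatives were other pseudocounts (1 and 0.01), filters, scalings and fits, the replicate number as a block, a term for the mice numbered 4, the 8 other mice alone and leaving out each mouse. Same-numbered mice had a mean correlation of deviations of 0.34 over 13 pairs, of which 12 were over 0.1, so that the number was taken as pairing where every same-numbered pair on the 2 sides of a comparison was over 0.1. This held between normal mice receiving BBR and normal mice (3 pairs) and between mice with and without DSS in the averaged comparison and the interaction (4 pairs, r of 0.137 to 0.405). By these same pairs it also held between colitis and normal mice (0.386 and 0.396) and between the groups receiving BBR (0.137 and 0.405). For pathway genes in those 2 comparisons only values without the block are given. The pairing across DSS was settled after the calls were known, and the pair numbered 2, both with DSS, had r of 0.0777.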

Additional observations from a re-analysis of the deposited data

Results flagged for a closer look

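The 7 genes and 37 pathway genes together make 44 genes tested. Without the block, 1 of the 44 had an interaction of DSS and BBR at P of at most 0.05, a share close to the 2.42% of all genes. None of all genes passed an adjusted p under 0.05 in limma. The gene was Hsd11b1, which encodes the enzyme that regenerates active glucocorticoid. On the log2 scale, it differed by 0.50 between colitis and normal mice and by −0.81 between colitis mice receiving BBR and normal mice receiving BBR. The test of the difference itself, the interaction, was −1.31 ± 0.52 (SE; limma adjusted p = 0.9998). It was not at P of at most 0.05 with quantile normalization or centring on the median. With the replicate number as a block it was (−1.46, limma adjusted p = 0.833). Scnn1a (0.96) and Scnn1g (−1.26) were at that limit with the block too, where 5.09% of all genes were. Of the 3 colitis mice receiving BBR, 2 lay below all normal mice in Hsd11b1. At 1.59 to 7.21 FPKM Hsd11b1 is one of the lower genes described.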

How the results depend on the processing

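Of the 7 genes, the number at P of at most 0.05 was 2 between colitis and normal mice, 0 centred on the median and 5 with the replicate number as a block, and the number at an adjusted p under 0.05 was 0, and 1 in a fit of these groups alone (Scnn1a, limma adjusted p = 0.0373, the lowest of 18 alternatives that ran to 0.318). For colitis mice receiving BBR against colitis mice the first number was 1, and 2 with quantile normalization or centring on the median, 0 with these groups alone and 0 to 2 without 1 mouse, and the second was 0 to 1 without 1 mouse. For normal mice receiving BBR against normal mice the first was 0, and 1 with the block. For colitis mice receiving BBR against normal mice receiving BBR the first was 0, with 2 and the second with 1 under the block (Scnn1g, −2.23, limma adjusted p = 0.042, against −1.34 without it), 1 over the 8 mice not numbered 4 and 0 to 2 without 1 mouse. For DSS averaged over BBR the first was 3, with 1 after quantile normalization, 0 centred on the median, 1 centred on the pan-epithelial markers, 5 with the block and 1 to 4 without 1 mouse. The second was 1, with 0 without a filter, with quantile normalization, with both centrings and without a trend, 3 with the block, 3 over the 8 mice and 0 to 3 without 1 mouse. The interaction had 0 at P of at most 0.05, 1 centred on the median, 2 with the block and 0 to 2 without 1 mouse. The block changed no other of these counts, and 5 of 12 mice correlated best with a mouse of their own number.

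These differences changed sign. Between colitis and normal mice, Scnn1g was 0.15 with quantile normalization, 0.17 centred on the median, 0.055 over the 8 mice and −0.88 to 0.63 without 1 mouse. Sgk1 was 0.13 centred on the median, 0.46 over the 8 mice and −0.80 to 0.14 without 1 mouse, and Nedd4l was 0.093 with quantile normalization, 0.16 centred on the median and −0.39 to 0.022 without 1 mouse. Between the groups receiving BBR, Scnn1a was 0.33 and Nr3c2 0.013 centred on the median, Sgk1 −0.60 with the block, and Nedd4l 0.079 with quantile normalization and 0.14 centred on the median. Without 1 mouse, Scnn1a was −0.35 to 0.34, Hsd11b2 −1.38 to 0.012 and Sgk1 −0.49 to 0.38 there. Between normal mice receiving BBR and normal mice, Scnn1a was 0.10 centred on the pan-epithelial markers, Nr3c2 0.0078 with quantile normalization, 0.028 centred on the median and 0.20 on the pan-epithelial markers, and Sgk1 0.17 on these markers and 0.17 over the 8 mice. Without 1 mouse, Nr3c2 was −0.075 to 0.13, Scnn1b −0.077 to 0.58 and Sgk1 −0.37 to 0.31 there. For colitis mice receiving BBR against colitis mice, Hsd11b2 was −0.57 to 0.98, Scnn1g −1.07 to 0.44 and Sgk1 −0.32 to 0.85 without 1 mouse. Averaged over BBR, Sgk1 was 0.34 centred on the median, 0.49 over the 8 mice and −0.36 to 0.11 without 1 mouse, and Nedd4l 0.086 with quantile normalization and 0.15 centred on the median. In the interaction, Hsd11b2 was −0.29 to 1.26, Nedd4l −0.57 to 0.14, Scnn1b −0.013 to 0.98 and Sgk1 −0.28 to 0.89 without 1 mouse. The averaged ratio of Scnn1g to Scnn1a was −0.59 to 0.18 without 1 mouse. The cause of these changes was not tested.

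Over all genes, the count at an adjusted p under 0.05 between colitis and normal mice was 165 and ran from 11 without normal mouse 1 to 1412 with a term for the mice numbered 4. Averaged over BBR it was 2188 and ran from 319 without normal mouse 1 to 6187 over the 8 mice. Between the groups receiving BBR it was 6 and ran from 0 to 2302, and for colitis mice receiving BBR against colitis mice it was 0 and reached 58 without mouse 3. Of the 21 genes most like 1 of the 7 by Pearson's r, 7 were also among the closest by Spearman's rho. Depth limits no value of the 7 genes, as 1 FPKM on 3000 bases stands for 38.2 to 59.4 reads.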
